A study of Mus musculus with 6 samples.

Results

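Genes of the smooth muscle contractile apparatus were followed in bile duct tissue of mice, namely Acta2, Actg2, Myh11, Tagln, Cnn1, Des, Mylk, Smtn, Lmod1 and Myocd. These 10 genes were read by every non-control array probe that carried one of these gene names, which gave 23 of the 56605 probes on the array. Of these, 20 probes passed the filter on dim signal, and all 10 genes were among the 20737 genes tested. The samples were total RNA labelled as epithelia of the common bile duct from C57BL/6 mice of the iFGF10 line, for which the study's title and design name overexpression of the growth factor FGF10. In the DOX+ group (n = 3) the mice drank 0.02% doxycycline, an antibiotic that switches on genes under a tetracycline-controlled promoter, for 5 days. In the DOX- group (n = 3) they drank water only for 5 days. Every sample had its own 1-colour Agilent array, read in Cy3. The sources used here name neither the promoter and cell type that drive the construct nor the age of the mice. The descriptions of the DOX- samples begin with WT and a pair of numbers while their source names give iFGF10, so the labels settle neither whether those mice carried the construct nor whether a sample was a pool. Mice that drank doxycycline without the construct were not analysed here, so the drug and the construct cannot be told apart.

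Smooth muscle shortens when myosin filaments pull on actin filaments anchored at dense bodies. Calcium and calmodulin switch on myosin light chain kinase, which phosphorylates the regulatory light chain, and thin filament proteins such as calponin and caldesmon tune the interaction. Most genes of the apparatus are driven by serum response factor, which binds CArG boxes near their promoters, together with the coactivator myocardin. In the biliary tree, smooth muscle lies in the wall of the extrahepatic ducts and at the sphincter, outside the epithelium, and arteries carry it as well.

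Several probes lie across exon junctions, and 3 of these are shown because they read coding, spliced RNA of an actin, the myosin and calponin. Each is the 60-base probe as the scanner files give it, 5′ to 3′, and the coordinates on the mm9 build span the intron between the joined exons. The Acta2 probe lies at chr19:34322995-34326249 (minus strand), the Myh11 probe at chr16:14207835-14208094 (minus strand) and the Cnn1 probe at chr9:21909945-21910166 (plus strand).
Acta2 probe: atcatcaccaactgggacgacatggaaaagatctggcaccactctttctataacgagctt
Myh11 probe: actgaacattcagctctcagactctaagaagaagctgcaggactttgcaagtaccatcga
Cnn1 probe: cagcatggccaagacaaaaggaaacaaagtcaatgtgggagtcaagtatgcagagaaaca
The RefSeq promoter table (GRCm38.p6, 250 bases before to 50 bases after each start) held 6 of the 10 genes: Acta2, Cnn1, Des, Mylk, Smtn and Lmod1. The CArG box was searched by its consensus, which reads the same on both strands. An exact box was found in 0 of these 6 promoters and in 535 of the 32851 promoters of the table (1.63%). With 1 substitution allowed in the 6 core bases, 1 of the 6 promoters and 3280 of all (9.98%) held a match. That promoter is Acta2, with 2 matches that start 84 and 34 bases before the start, and 270 promoters of the table (0.82%) held at least 2. The stretch from 104 to 1 bases before the Acta2 start, at chr19:34255374-34255477 (minus strand, GRCm38.p6), is shown with the matches in capitals. It was picked because no other of the 6 promoters held a match.
Acta2 promoter: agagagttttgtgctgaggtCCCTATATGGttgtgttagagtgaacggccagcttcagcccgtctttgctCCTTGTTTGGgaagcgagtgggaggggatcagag
A match is a description of the letters and not a bound site, and binding was not measured.

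Levels are given as log2 of the processed spot intensity minus the 75th percentile of the same array, so 0 is the level of that percentile and 1 unit is a 2-fold difference. Levels of different probes are not set against each other, because probes differ in brightness for the same amount of RNA. A difference is DOX+ minus DOX-, with its standard error (SE) from limma and a p-value adjusted over all 20737 genes by the Benjamini-Hochberg method, and a gene passed at an adjusted p under 0.05. The arrays held 59305 non-control spots each, and the share well above background was 59.93% to 61.9% in DOX+ and 55.93% to 60.61% in DOX-. All 6 arrays came from 1 slide and 1 scan. Slide row 1 carried the 3 DOX+ arrays and DOX- replicate 1, whereas DOX- replicates 2 and 3 were in row 2. None of the 3 probes for Fgf10 itself was well above background on any array, and the sources used here do not say whether the construct's RNA carries their targets. The labelled epithelium was present: Krt19, a keratin of bile duct cells, stood at 7.31, 7.03 and 6.96 on the DOX+ arrays, against 6.91, 7.33 and 7.88 on the DOX- arrays.

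None of the 10 contractile genes passed the test between DOX+ and DOX- bile ducts, where 0.0386% of all genes passed (8 of 20737, with 0.0193% higher and 0.0193% lower). In the DOX- group, replicate 1 carried far more of all 10 messages than replicates 2 and 3, between 2.78-fold (Smtn) and 6.73-fold (Des). The 3 DOX+ samples mostly fell between these extremes. At an unadjusted p under 0.05 the count was again 0 of 10, against 13.3% of all genes, and the groups did not overlap for 0 of 10 genes, against 21.0% of all genes. The median difference of the 10 genes was 0.21, with 6 higher and 4 lower in DOX+, beside a median of -0.012 over all genes, 48.2% of which were higher in DOX+. These are whole-sample measurements, in which fewer smooth muscle cells and less RNA per cell cannot be told apart.

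**Figure D1:**
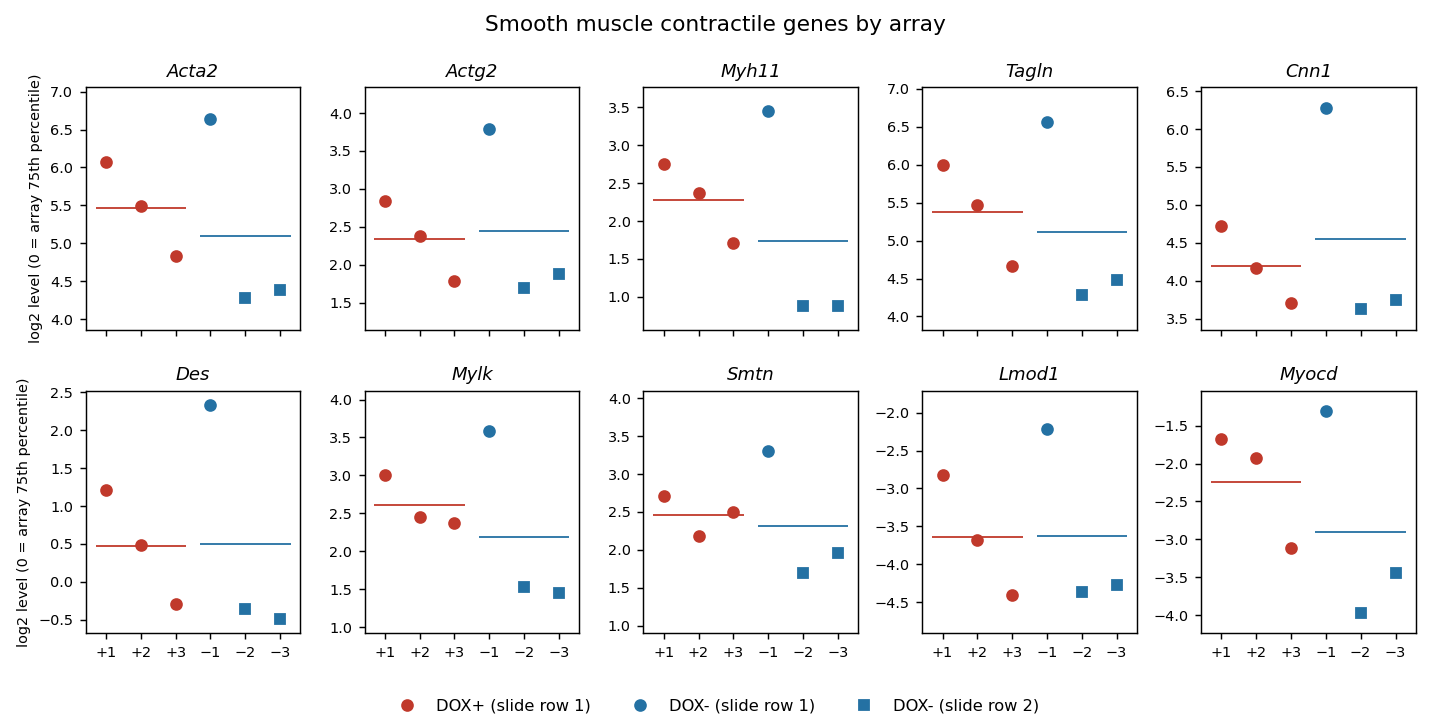
Log2 level of each of the 10 contractile genes on each array (y axis, relative to the array's 75th percentile), with DOX+ replicates 1 to 3 left of DOX- replicates 1 to 3 and lines at the group means. DOX- replicate 1 is the highest array in all 10 panels, and in no panel do the groups separate.

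The 2 smooth muscle actins form the thin filaments. Acta2, the vascular and general smooth muscle alpha-actin, had levels of 6.07, 5.49 and 4.83 in DOX+ ducts, against 6.64, 4.28 and 4.39 in DOX- ducts. DOX- replicate 1 was thus above all 3 DOX+ samples and DOX- replicates 2 and 3 were below them, a 4.94-fold gap within one group. The difference was 0.36 (SE 0.69, 95% interval -1.31 to 2.04, limma adjusted p = 0.851). Actg2, the enteric gamma-actin typical of visceral muscle, had levels of 2.85, 2.38 and 1.79 in DOX+ ducts, against 3.78, 1.69 and 1.87 in DOX- ducts. Here DOX+ replicate 3 lay between the 2 low DOX- samples, and the difference was -0.11 (SE 0.60, limma adjusted p = 0.958).

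The motor and its switch are Myh11, the smooth muscle myosin heavy chain, and Mylk, the light chain kinase. Myh11 stood at 2.76, 2.38 and 1.71 in DOX+ ducts, against 3.45, 0.88 and 0.88 in DOX- ducts. Every DOX+ sample was above DOX- replicates 2 and 3, which matched each other closely, and below DOX- replicate 1, 5.93-fold above them. The difference was 0.54 (SE 0.74, 95% interval -1.25 to 2.33, limma adjusted p = 0.784). Mylk showed the same order, with 3.01, 2.46 and 2.38 in DOX+ ducts against 3.59, 1.53 and 1.45 in DOX- ducts. Its difference was 0.43 (SE 0.59, limma adjusted p = 0.790).

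A further 4 genes encode proteins that bind actin. Tagln, transgelin or SM22-alpha, an early marker of the lineage, had levels of 6.00, 5.48 and 4.67 in DOX+ ducts, against 6.56, 4.28 and 4.48 in DOX- ducts. It ran almost parallel to Acta2 and differed by 0.27 (SE 0.67, limma adjusted p = 0.892). Cnn1, calponin, which inhibits the actomyosin ATPase, had levels of 4.72, 4.17 and 3.71 in DOX+ ducts, against 6.27, 3.63 and 3.74 in DOX- ducts. DOX- replicate 1 stood far above the highest DOX+ sample, and the difference was -0.35 (SE 0.74, 95% interval -2.14 to 1.45, limma adjusted p = 0.872). Smtn, smoothelin, found in fully contractile cells, had the narrowest spread, with 2.70, 2.18 and 2.49 in DOX+ ducts against 3.30, 1.69 and 1.96 in DOX- ducts. It was also the exception to the order of the DOX+ samples, since its replicate 3 was above replicate 2. The Smtn difference was 0.14 (SE 0.43, limma adjusted p = 0.916). Lmod1, leiomodin 1, an actin nucleator of smooth muscle, had levels of -2.82, -3.68 and -4.40 in DOX+ ducts, against -2.22, -4.37 and -4.28 in DOX- ducts. DOX+ replicate 3 was its lowest sample, and the difference was -0.02 (SE 0.68, limma adjusted p = 0.996).

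Des, desmin, the intermediate filament of muscle, had the widest spread of the 10 genes. Its levels were 1.21, 0.49 and -0.29 in DOX+ ducts, against 2.33, -0.36 and -0.49 in DOX- ducts, and the difference was -0.02 (SE 0.82, limma adjusted p = 0.995). Myocd, myocardin, the coactivator of serum response factor, stood at -1.67, -1.92 and -3.12 in DOX+ ducts, against -1.31, -3.97 and -3.44 in DOX- ducts. All 3 DOX+ samples lay above DOX- replicates 2 and 3 and below DOX- replicate 1. The difference of 0.67 was the largest of the 10, with an SE of 0.75 and a limma adjusted p of 0.732, the smallest among them.

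The 10 genes shared one order of arrays, an order known from earlier results when they were listed. DOX- replicate 1 was the highest array for 10 of 10 genes and 19 of 20 probes, against 12.2% of all genes. It was at the same time at least 1 unit above both other DOX- arrays for 10 of 10 genes, against 1.91% of all genes. All 3 DOX+ samples lay between DOX- replicate 1 above and DOX- replicates 2 and 3 below for 7 of 10 genes, against 2.01% of all genes. DOX+ replicate 1 was above replicate 2 and replicate 2 above replicate 3 for 9 of 10 genes, against 21.7% of all genes. The 10 genes come from the same 6 samples, so these counts are not independent of each other.

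This spread within groups is large beside that of other genes. From the lowest to the highest array the contractile genes spanned 1.61 to 2.81 units, with a median of 2.32, where the median gene spanned 0.68. A range of at least 2.32 was reached by 6.95% of all genes. The median SD within DOX+ was 0.574 for the contractile genes and 0.198 for all genes, and within DOX- it was 1.297 for the contractile genes and 0.218 for all genes. The median SE of a difference was accordingly 0.685 for them and 0.185 for all genes. DOX- replicate 1 exceeded the mean of DOX- replicates 2 and 3 by a median of 2.24 for the contractile genes and by -0.079 over all genes, a value that the scaling to each array's percentile holds near 0.

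The direction of the comparison turned on that sample. Without DOX- replicate 1, all 10 contractile genes were higher in DOX+, with a median difference of 0.95. At an unadjusted p under 0.05 this held for 5 of 10, against 15.8% of all genes in that fit, and 0 of 10 passed, where 0.0434% of all genes passed. Myh11 then differed by 1.40 (limma adjusted p = 0.204) and Mylk by 1.13 (limma adjusted p = 0.190). The array left out was the highest for all 10 genes, so leaving it out raised every difference. Neither the direction nor the count in this fit is separate support for higher levels in DOX+. With a block for slide row, the comparison is of the DOX+ arrays with the single DOX- array of row 1, and all 10 were lower in DOX+, with a median difference of -1.18. Since that array was the highest for all 10, the direction was fixed by which array remained, and the fit is no separate support for it. In it 0 of 10 passed, where 0.00% of all genes passed. Cnn1 then differed by -2.08 (limma adjusted p = 0.566) and Des by -1.86 (limma adjusted p = 0.644). Row 2 held DOX- arrays only and gave no value, and row and sample cannot be told apart there.

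**Figure D2:**
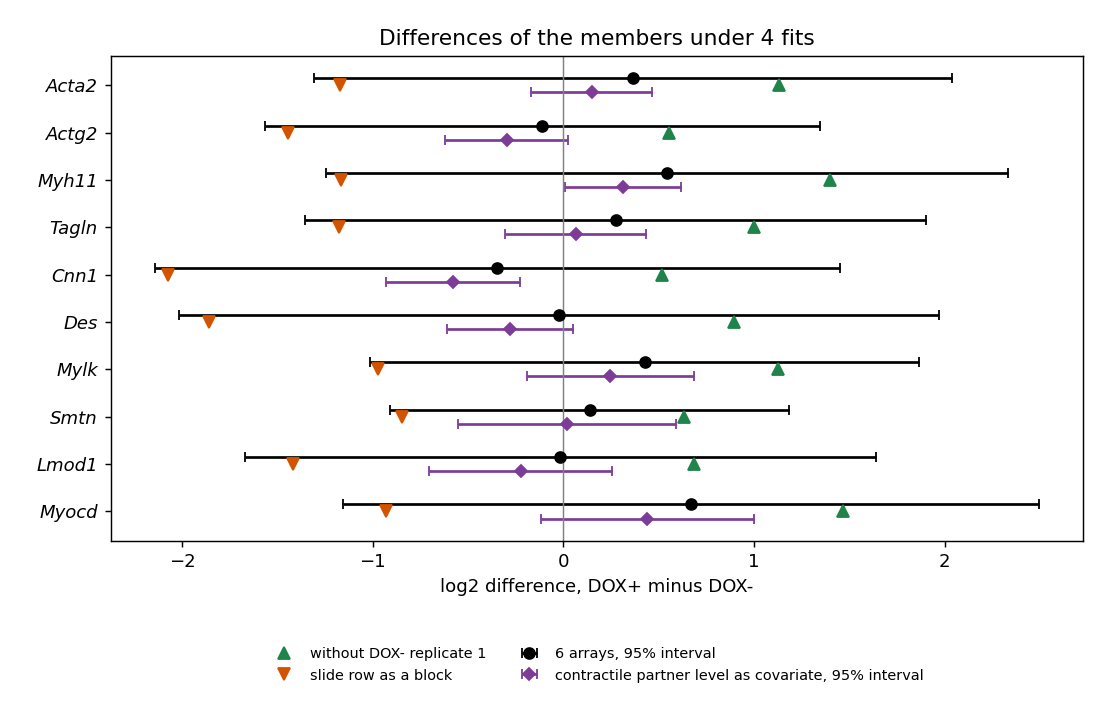
Log2 difference, DOX+ minus DOX- (x axis), for each contractile gene (y axis) in 4 fits: all 6 arrays and the fit with the contractile partner level as a covariate (both with 95% intervals), without DOX- replicate 1, and with slide row as a block. Triangles pointing up (without DOX- replicate 1) lie right of 0 and triangles pointing down (slide row) lie left of 0 for all 10 genes, and the intervals of the fit on all 6 arrays all cover 0.

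Most probes of a gene followed the same order. For Myh11, 3 of the 4 probes spanned the arrays widely, and the one for AK085742 followed the same order in a narrower range, with -1.98, -2.66 and -2.71 in DOX+ ducts against -1.70, -3.32 and -3.02 in DOX- ducts. The spliced Acta2 probe shown above was also compressed, at 3.60, 3.26 and 3.03 in DOX+ ducts against 4.24, 3.03 and 3.39 in DOX- ducts. Its order differed too, with DOX- replicate 3 above DOX+ replicates 2 and 3. Its difference was -0.26, while those of the other 2 tested Acta2 probes were both 0.36. None of the 20 probes passed when all 31720 probes were tested, where 0.0567% passed.

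One Mylk probe departed from its gene more widely. The Mylk probe for AK044527, at chr16:34953958-34954017 (mm9, plus strand) and upstream of the other 3 tested Mylk probes, had -2.72, -3.40 and -3.14 in DOX+ ducts, against -3.43, -3.49 and -3.49 in DOX- ducts. It was the only one of 20 probes whose groups did not overlap, against 20.1% of all probes tested, and it lacked the high value on DOX- replicate 1. Its difference was 0.38 (SE 0.19, limma adjusted p = 0.461 over probes). Another 3 probes were not well above background on all arrays of either group and were not tested: one each of Acta2 (AK033744), Des (ENSMUST00000144894) and Mylk (ENSMUST00000155268).

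**Figure D3:**
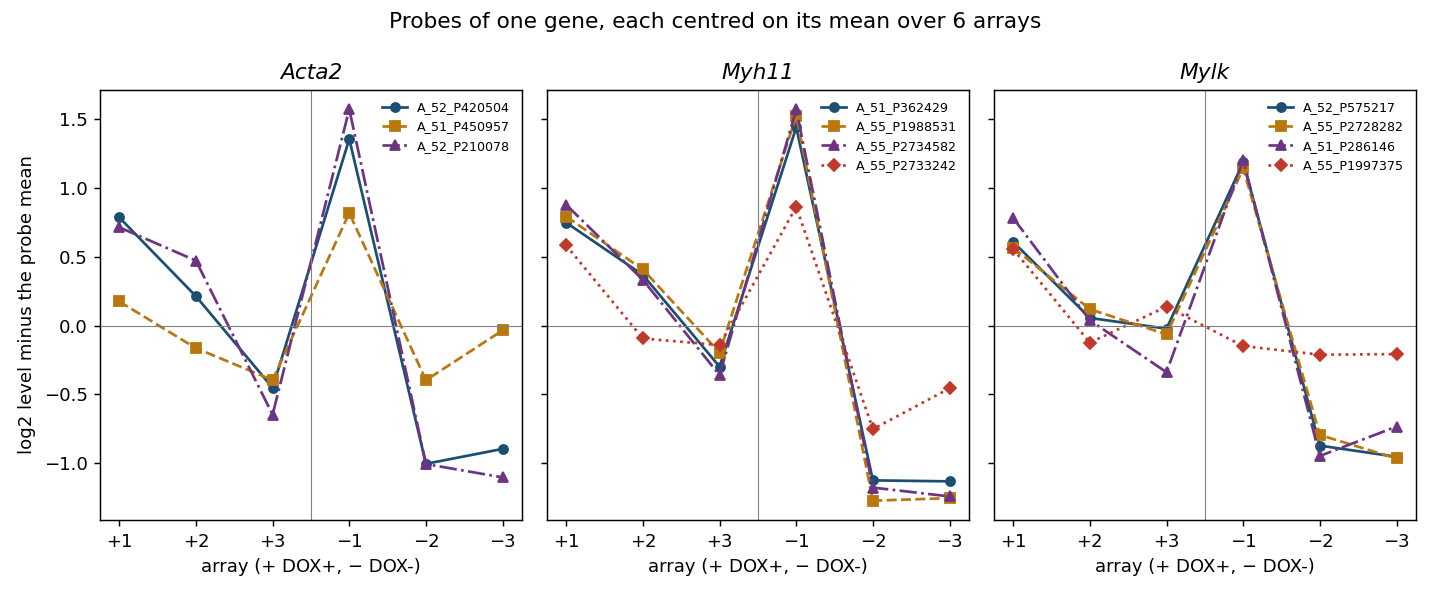
Levels of each tested probe of Acta2, Myh11 and Mylk, centred on the probe's own mean over the 6 arrays (y axis, log2), with DOX+ replicates 1 to 3 left of DOX- replicates 1 to 3. Most probes of a gene run together. A_55_P1997375 of Mylk stays near 0 on DOX- replicate 1, and A_51_P450957 of Acta2 is compressed, with DOX- replicate 3 above DOX+ replicates 2 and 3. The lines join arrays of one probe without implying an order.

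Other smooth muscle genes were read from a list of 26 contractile partners, none of which passed (16 higher and 10 lower, median 0.10). Of these, 20 had their highest level on DOX- replicate 1. The median centred level of the partners was 0.39, 0.10 and -0.35 on the DOX+ arrays, against 0.95, -0.61 and -0.63 on the DOX- arrays. For the 10 contractile genes it was 0.74, 0.03 and -0.56 on the DOX+ arrays, against 1.37, -0.86 and -0.82 on the DOX- arrays, the same order with larger steps. Tns1, tensin 1, which links integrins to actin, had 4.45, 4.61 and 5.02 in DOX+ ducts against 4.33, 3.65 and 3.51 in DOX- ducts, without overlap (difference 0.86, limma adjusted p = 0.294). Vcl, vinculin of adhesion plaques, had 1.94, 1.93 and 1.88 in DOX+ ducts against 2.94, 2.24 and 2.22 in DOX- ducts (difference -0.55, limma adjusted p = 0.363). Actn1, alpha-actinin 1, which crosslinks actin, differed by -0.35 (limma adjusted p = 0.402) and Itga7, a laminin-binding integrin subunit, by 1.04 (limma adjusted p = 0.455).

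Of 23 genes of calcium handling and relaxation, 20 were tested, and 10 of these were highest on DOX- replicate 1, against 12.2% of all genes. None passed, 14 were higher and 6 lower, and the median difference was 0.25. The groups did not overlap for 1 of the higher and 2 of the lower genes, where 21.0% of all genes did not overlap. Gucy1b1, a subunit of soluble guanylate cyclase, the nitric oxide receptor, had -1.01, -0.93 and -1.05 in DOX+ ducts against -1.19, -1.73 and -1.91 in DOX- ducts. All 3 DOX+ samples were above all 3 DOX- samples, with a difference of 0.62 (limma adjusted p = 0.308). Its partner subunit Gucy1a1 differed by 0.68 (limma adjusted p = 0.366) and Abcc9, a subunit of the ATP-sensitive potassium channel, by 0.70 (limma adjusted p = 0.414).

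Among receptors of agents that contract or relax visceral muscle, 9 of 15 were tested and none passed, with 7 higher and 2 lower and a median of 0.44. Ednra, the endothelin A receptor, had -1.34, -0.53 and -0.94 in DOX+ ducts against -1.42, -1.70 and -1.74 in DOX- ducts (difference 0.68, limma adjusted p = 0.312). Vipr2, a receptor for vasoactive intestinal peptide, had -3.52, -3.25 and -0.57 in DOX+ ducts against -4.11, -5.05 and -6.91 in DOX- ducts, where it was well above background on only 1 of the 3 arrays (difference 2.91, limma adjusted p = 0.323). Tacr2, the neurokinin 2 receptor, differed by 0.26 (limma adjusted p = 0.504), and Agtr1a, an angiotensin receptor, by 0.53 (limma adjusted p = 0.529).

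Of 16 transcription regulators of smooth muscle, 14 were tested and none passed (7 higher and 7 lower, median -0.01). Srf, serum response factor itself, had 0.90, 0.75 and 0.41 in DOX+ ducts against 1.26, 0.66 and 0.36 in DOX- ducts, with overlap. Foxf2, a forkhead factor of gut mesenchyme, had -4.08, -3.75 and -3.64 in DOX+ ducts against -2.15, -3.28 and -3.04 in DOX- ducts, without overlap (difference -1.0, limma adjusted p = 0.294). Hand2, a factor of mesenchyme and of sympathetic neurons, differed by 0.56 (limma adjusted p = 0.515), Heyl, a Notch target, by 0.34 (limma adjusted p = 0.575) and Mrtfb, a relative of myocardin, by 0.21 (limma adjusted p = 0.585). Srf was named after its values were seen.

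Of 12 non-muscle relatives of the contractile genes, 10 were tested and none passed (5 higher and 5 lower, median 0.00). Without overlap between the groups were 1 of the higher and 4 of the lower genes, where 21.0% of all genes did not overlap. DOX- replicate 1 was the highest array for 4 of the 10, against 12.2% of all genes, and their median centred levels were 0.09, 0.19 and -0.30 in DOX+ against 0.27, -0.35 and -0.33 in DOX-. Cnn2, a calponin of non-muscle cells, named after its values were seen, followed the contractile order with 1.18, 0.92 and 0.37 in DOX+ ducts against 1.72, 0.28 and -0.19 in DOX- ducts. Actb, cytoplasmic beta-actin, had 7.69, 7.51 and 7.43 in DOX+ ducts against 7.95, 7.76 and 7.97 in DOX- ducts. It did not show the 4.94-fold gap of Acta2 within DOX-, and its groups did not overlap (difference -0.35, limma adjusted p = 0.358). Tagln2, the transgelin of non-muscle cells, had 6.44, 6.11 and 5.81 in DOX+ ducts against 6.49, 6.64 and 7.06 in DOX- ducts (difference -0.62, limma adjusted p = 0.338). Actg1, cytoplasmic gamma-actin, differed by -0.39 (limma adjusted p = 0.347) and Mylk2, the skeletal muscle light chain kinase, by 0.74 (limma adjusted p = 0.217), although Mylk2 was well above background on only 1 of the 3 DOX- arrays.

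Outside the 10 genes, likeness to their shared order was measured as the root mean square distance, over the 6 arrays, between a gene's centred levels and the median centred levels of the 10. By construction the members score well on it: Tagln was at 0.10, Acta2 at 0.11 and Smtn, the farthest, at 0.42. The 8 nearest genes outside the list were Fhod3 (0.12), Actc1 (0.15), Acta1 (0.16), Tpm2 (0.17), Synpo2 (0.17), Sh3bgr (0.17), Gm13889 (0.17) and Optc (0.18). Fhod3 encodes a formin of muscle, Actc1 and Acta1 the cardiac and skeletal actins, Tpm2 beta-tropomyosin and Synpo2 synaptopodin 2, which binds actin at dense bodies and Z discs. Acta1 had 0.58, -0.06 and -0.71 in DOX+ ducts against 1.33, -1.30 and -1.24 in DOX- ducts. Of 15 markers of skeletal and heart muscle, the 2 actins included, 8 were tested and none passed (3 higher and 5 lower, median -0.06), and 6 were highest on DOX- replicate 1. Ckm, muscle creatine kinase, and 6 others did not pass the filter on dim signal.

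Marker lists of the other cells in a duct sample differed in how they ran beside the contractile genes. The summed level of the contractile genes was 7.56, 7.02 and 6.42 on the DOX+ arrays, against 8.34, 5.98 and 6.12 on the DOX- arrays. All 4 tested of 7 mesothelial markers were also highest on DOX- replicate 1, and their summed level was 1.88, 1.30 and 0.23 on the DOX+ arrays, against 3.16, 2.32 and 0.43 on the DOX- arrays. Msln, mesothelin of the serosa, had 1.65, 0.76 and -0.24 in DOX+ ducts against 2.85, 2.26 and 0.25 in DOX- ducts. Fibroblast markers, with 4 of 12 tested genes highest on DOX- replicate 1, had summed levels of 7.25, 7.16 and 6.58 on the DOX+ arrays, against 7.46, 6.82 and 6.92 on the DOX- arrays.

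For pancreatic acinar markers, 8 of 8 had their lowest level on DOX- replicate 1, against 19% of all genes. Their median centred level was 1.75, -0.45 and 0.14 on the DOX+ arrays, against -4.56, 0.27 and 2.51 on the DOX- arrays. It had the opposite sign to that of the contractile genes on every array except DOX+ replicate 1, the highest DOX+ array for both lists. The summed level of the acinar markers was 7.12, 6.59 and 6.63 on the DOX+ arrays, against 5.90, 6.44 and 7.64 on the DOX- arrays. Cpa1, a carboxypeptidase of acinar cells, had 2.29, -0.11 and 0.60 in DOX+ ducts against -4.50, 1.15 and 2.95 in DOX- ducts. For hepatocyte markers, 6 of 8 were highest on DOX- replicate 1, with summed levels of 6.12, 7.02 and 6.18 on the DOX+ arrays, against 7.22, 6.45 and 5.88 on the DOX- arrays. Bile duct epithelial markers (13 of 14 tested) varied less in summed level, at 9.45, 9.24 and 9.15 on the DOX+ arrays, against 9.41, 9.53 and 9.91 on the DOX- arrays. That sum is led by the brightest genes. Gene by gene, 2 were higher and 11 lower in DOX+ (median -0.22), and none passed. The groups did not overlap for 5 of the lower genes, where 21.0% of all genes did not overlap. Endothelial markers (10 of 10 tested) were at 4.87, 4.92 and 4.54 on the DOX+ arrays, against 4.37, 3.90 and 4.10 on the DOX- arrays. Markers of neurons, glia and interstitial cells of Cajal (10 of 14 tested, 0 of them highest on DOX- replicate 1) were at 5.18, 5.38 and 6.21 on the DOX+ arrays, against 5.77, 5.85 and 5.90 on the DOX- arrays. The part of any of these cell types in the contractile levels was not tested.

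**Figure D4:**
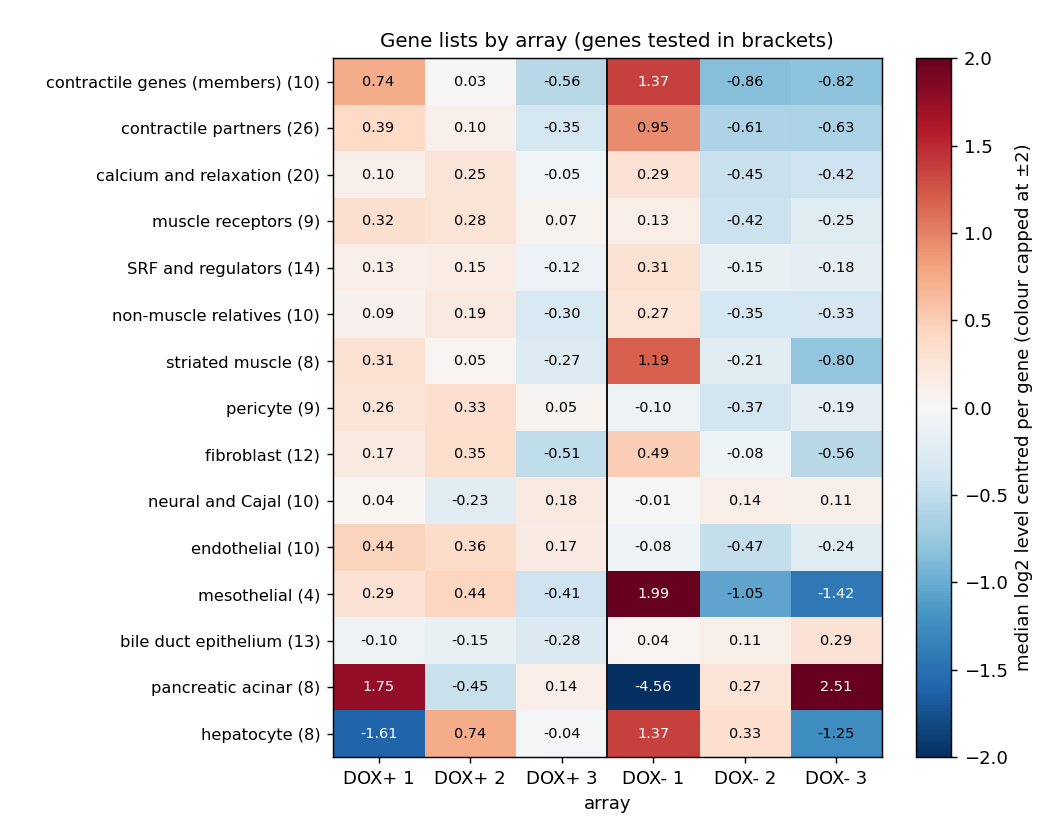
Median centred log2 level of each gene list (rows, with the number of genes tested) on each array (columns, DOX+ left of DOX-). The contractile genes read 0.74, 0.03 and -0.56 in DOX+ and 1.37, -0.86 and -0.82 in DOX-, and the acinar markers reach -4.56 on DOX- replicate 1, where colour is capped.

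Since the contractile genes shared one order over the arrays, their proportions were examined within each array. A ratio of levels from different probes has no meaning by itself, but its shift between arrays shows unequal change. Over the 45 pairs of the 10 genes, 16 pairs (35.6%) had ratios that did not overlap between the groups, against 21.9% of all pairs of the 20737 genes. Each gene enters 9 of the 45 pairs, so the pairs are not independent, and whether the shares differ was not tested. The log2 ratio of Myh11 to Cnn1 was -1.96, -1.80 and -2.0 in DOX+ ducts, against -2.83, -2.74 and -2.87 in DOX- ducts. The difference of 0.89 stood beside an SD of 0.109 within DOX+ and 0.063 within DOX-, and DOX- replicate 1 did not stand apart in it. For Acta2 over Cnn1 the log2 ratio was 1.35, 1.32 and 1.12 in DOX+ ducts, against 0.36, 0.65 and 0.64 in DOX- ducts. Tagln over Cnn1 differed by 0.62 and Cnn1 over Mylk by -0.77, both without overlap, whereas Acta2 over Tagln differed by only 0.09 and overlapped. Of the 9 pairs with Cnn1, 5 did not overlap, while those with Actg2, Des, Smtn and Lmod1 did. This count was not particular to Cnn1, since it was also 5 for Actg2 and 5 for Myocd. It was 4 for Tagln and 0 for Smtn.

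Taken over single probes, 6 of the 8 combinations of the 4 Myh11 probes and the 2 Cnn1 probes did not overlap, with differences of 0.72 to 1.02. Both combinations that overlapped used the Myh11 probe for AK085742. These ratios were chosen after the levels had been seen and are a description with no test.

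**Figure D5:**
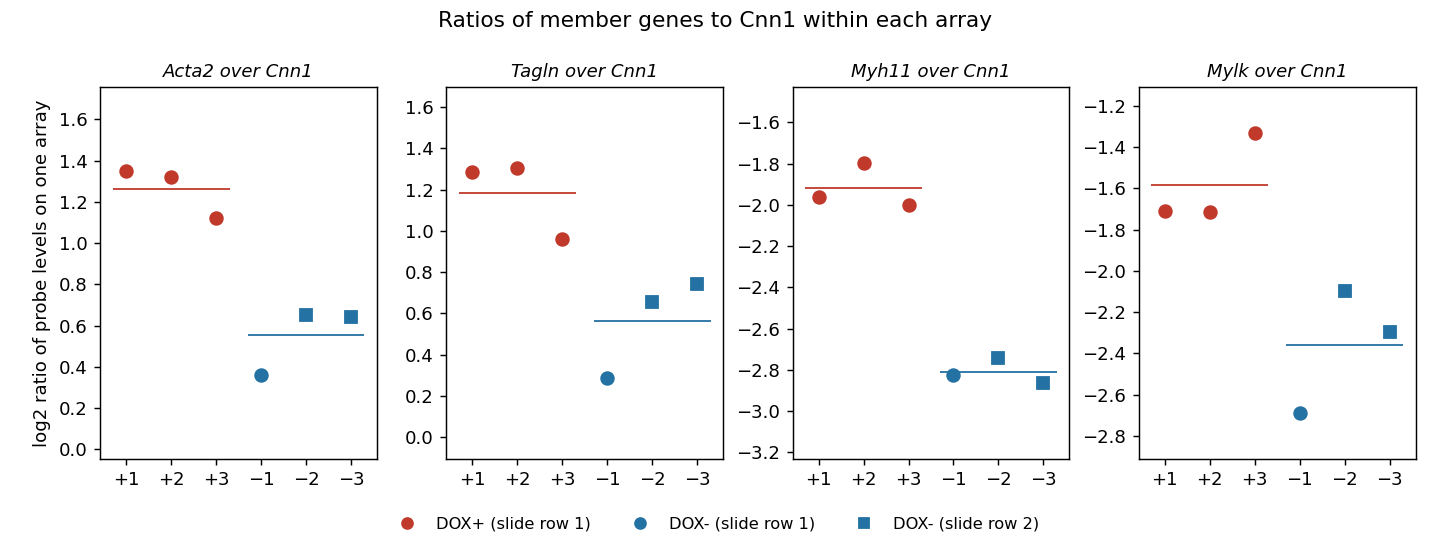
Log2 ratio of the levels of Acta2, Tagln, Myh11 and Mylk to Cnn1 on each array (y axis), with DOX+ replicates left of DOX- replicates and lines at the group means. In all 4 panels the DOX+ arrays lie above the DOX- arrays, as for Myh11 over Cnn1 with -1.96, -1.80 and -2.0 in DOX+ ducts and -2.83, -2.74 and -2.87 in DOX- ducts. The panels were picked from pairs without overlap, and the pairs of Cnn1 with Actg2, Des, Smtn and Lmod1, not shown, overlapped.

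In a further fit across all genes, the median centred level of the 26 partners was added as a covariate, with a slope fitted for each gene. It adjusts for the partners and not for another contractile gene. Because the partners ran in the same order over the arrays, it is not separate support for the ratios above. This fit was also added after the levels had been seen. The SEs of the 10 genes fell to between 0.119 and 0.226, and 0 of 10 passed, where 0.00% of all genes passed and 13.3% were under an unadjusted p of 0.05. Cnn1 differed by -0.58 (SE 0.14, 95% interval -0.93 to -0.23, limma adjusted p = 0.247) and Myh11 by 0.31 (SE 0.12, 95% interval 0.01 to 0.62, limma adjusted p = 0.362). These 2 were the only contractile genes under an unadjusted p of 0.05. Actg2 differed by -0.30 (limma adjusted p = 0.400), Des by -0.28 (limma adjusted p = 0.425) and Myocd by 0.44 (limma adjusted p = 0.451), and the remaining 5 genes lay between -0.22 and 0.25.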

How the data were processed

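Scanner files of 6 arrays, all from 1 slide, give the intensity of each spot. Per the file headers, the authors used release 10.7.1.1 of Agilent's Feature Extraction, while the submitters' processing notes name 9.5.1.1. Background subtraction and detrending had been applied to the processed intensity array by array, per the file headers. The deposited files also hold raw intensity, background intensity and flags, and a table of the authors' processed intensity values whose sorted columns agree within 0.00034, on a linear scale, correlated with their own arrays at 0.99834 to 0.99999, each with a median of 57.79 and centring on no gene. No spot was saturated, and 50 to 64 flagged outlier spots per array were left out.

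Each log2 processed intensity was set against its array's 75th percentile and averaged over spots of a probe. A probe was kept where a whole group of 3 arrays had it well above background (31720 of 56605). The probe with the highest mean stood for each gene. RefSeq (GRCm38.p6) named 32994 probes by accession, 10224 by symbol and 520 by older symbol, while 12867 carry the file's own name. Groups came from the sample titles. limma 3.58.1 in R 4.3.3 (lmFit, eBayes, two-sided) compared them on group alone, and the code was tested on simulated data. Since the labels do not tie samples to animals beyond 3 mice in each condition, the p-values cover only how these samples spread, and the number of arrays limits the precision. Alternatives were normexp with offset 50, quantile normalisation, the authors' values, no filter, the mean of a gene's probes, slide row or replicate number as a block, and leaving out each array. The covariate fit and the medians of the gene lists under the alternatives were added after seeing the data.

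The 10 genes and all gene lists were chosen with earlier results of these data known. Named genes were the 10, up to 4 genes of smallest p in each of 5 lists, the 8 nearest by pattern and fixed defining markers; 1 gene that this rule names is not reported here. Python 3.11.15 with pandas 2.3.3 and matplotlib 3.10.9 did the rest.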

Additional observations from a re-analysis of the deposited data

How the results depend on the processing

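No contractile gene passed under any of the 14 alternatives, and the smallest adjusted p (limma) was 0.190. Of 140 differences, 120 kept their sign. None of the 50 under another background correction, scaling, filter or probe choice changed it. With slide row as a block the sign turned for Acta2 (-1.17), Myh11 (-1.17), Tagln (-1.18), Mylk (-0.97), Smtn (-0.84) and Myocd (-0.93), and the median of the 10 was -1.18. Leaving out 1 array, the median ran from -0.16 (without DOX- replicate 2) to 0.95 (without DOX- replicate 1), Acta2 from -0.047 to 1.13, Actg2 from -0.49 to 0.56, Tagln from -0.14 to 1.00, Cnn1 from -0.81 to 0.52, Des from -0.51 to 0.89, Smtn from -0.17 to 0.63 and Lmod1 from -0.42 to 0.69. The cause was not tested. Genes passing in the whole table numbered 8, against 7 with normexp, 2 with quantile normalisation, 2 with the authors' values, 1 with no filter and 11 with the mean of probes. With the slide row block they numbered 0 (1409 at an unadjusted p under 0.05), likewise 0 with the covariate (2758 unadjusted). Leaving out 1 array gave 0 (without DOX- replicate 2, with 1541 unadjusted) to 9 (without DOX- replicate 1), and 1 without DOX+ replicate 1. Probes passing numbered 18, against 9 with normexp, 19 with quantile normalisation, 0 with no filter (5036 unadjusted), 0 with slide row as a block (2211 unadjusted), 0 with the covariate (4223 unadjusted) and 0 to 29 when leaving out 1 array.

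With the replicate block, 0 genes (2258 unadjusted) and 0 probes (3442 unadjusted) passed and the median of the 10 stayed at 0.21. Over all genes, deviations of same-numbered arrays correlated at -0.087, -0.131 and -0.02. For the 10 contractile genes the block lowered every SE, as for Acta2 from 0.69 to 0.38 and Lmod1 from 0.68 to 0.29. The labels do not say whether the numbers pair the samples, and these values cannot settle it. With 3 arrays a group and a median SE of 0.685, differences of the size seen were not detectable.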

Other observations

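Of 10 markers of pericytes and mural cells 9 were tested, none passed with limma, 8 were higher and 1 lower in DOX+, and the median difference was 0.38, or 0.54 without DOX- replicate 1 and 0.30 with slide row as a block (6 higher and 3 lower). Notch3, the Notch receptor of mural cells, had 1.40, 1.64 and 1.04 in DOX+ ducts against 0.73, 0.49 and 0.62 in DOX- ducts, without overlap, where 21.0% of all genes did not overlap. Higd1b, a pericyte marker named after its values were seen, had 0.05, -0.07 and -0.16 in DOX+ ducts against -0.55, -1.11 and -0.59 in DOX- ducts. Rgs5, a regulator of G protein signalling in pericytes, had -0.12, 0.57 and 0.48 in DOX+ ducts against 0.02, -0.25 and 0.01 in DOX- ducts, with overlap. Mcam and Cspg4 were also named after their values were seen. Mcam, an adhesion molecule also found on endothelium, was the 1 gene lower in DOX+, with 3.84, 3.81 and 3.72 in DOX+ ducts against 3.95, 3.98 and 4.13 in DOX- ducts. Cspg4, the NG2 proteoglycan, followed the order of the contractile genes, with -0.88, -1.09 and -1.62 in DOX+ ducts against -0.22, -2.05 and -1.95 in DOX- ducts. DOX- replicate 1 was the highest array for 2 of these 9 genes, against 12.2% of all genes.

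Endothelial markers were higher in DOX+ for 10 of 10 genes (median 0.52), 0.63 without DOX- replicate 1 and 0.33 with slide row as a block, and none passed with limma. Pecam1, an adhesion molecule of endothelium, had -1.53, -1.44 and -1.64 in DOX+ ducts against -1.89, -2.18 and -2.17 in DOX- ducts.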
